A study of Solanum lycopersicum with 6 samples.

Results

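The genes described here are 10 cell cycle kinases and cyclins of tomato, chosen by locus identifier from the 25440 loci of an RNA sequencing table of axillary buds. They fall into 6 genes that act at or just before mitosis, namely CDKB1, CDKB2, CYCB1-2, CYCB2, CYCA1 and WEE1, and 4 genes set beside them for contrast, namely CDKA1 and 3 CYCD3 genes. Axillary buds are the side shoots that form where a leaf meets the stem. They were taken from greenhouse plants of 2 cultivars that the labels call monomaker and Compound raceme, with 3 libraries each. The sample titles and file headers abbreviate monomaker as WT and Compound raceme as BJ. Beyond these, the labels give no age, treatment, genotype or bud position for either cultivar. They also do not say whether the replicate libraries are of different plants. The p-values therefore cover only the spread among these 6 libraries, and that spread may be technical.

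Cyclin-dependent kinases drive the cell cycle and work only when bound to a cyclin, whose abundance sets the phase. In plants, A-type kinases such as CDKA1 carry the PSTAIRE cyclin-binding motif and are present throughout the cycle, whereas B-type kinases are specific to plants and their transcripts accumulate from late S phase to mitosis. D-type cyclins, which include the CYCD3 group, respond to hormones and sugars and promote entry into the cycle. B-type cyclins carry cells into mitosis, A-type cyclins act in S phase and at the approach to mitosis, and WEE1 kinases hold cyclin-dependent kinases inactive, in Arabidopsis chiefly when DNA is damaged. Dormant axillary buds divide little, and their outgrowth brings renewed division. A library from a whole bud averages cycling and resting cells, so fewer dividing cells and less RNA per dividing cell cannot be told apart.

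The table gives each gene's level as FPKM, a fragment count divided by transcript length and by the total of the library, so levels can be set beside each other between genes. Read counts are not used here and the sequencing depth is unknown. FPKM values summed to between 674654 and 750250 per library, and 22755 to 23027 loci were above 0. The table holds no gene names. The RefSeq gene table (assembly SLM_r2.1) carries all of the names used here except that of the CYCD3 gene Solyc12g088650, and 7 of the 10 members lie at a similar place on the same chromosome there. CDKB1 and CDKA1 lie on the same chromosome but farther off, by 0.0643 and 0.0852 of that chromosome's genes, against a tolerance of 0.05. Solyc12g088650 lies on chromosome 12, while RefSeq places the remaining CYCD3 symbol on chromosome 1, so it is called by its identifier.

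All 6 mitotic genes fell in compound raceme buds, and none of the 4 contrast genes passed the test. Fold changes are compound raceme over monomaker of log2(FPKM + 1), a scale on which changes of low genes come out too small, and a gene was called at an adjusted p below 0.05 in limma over the 18802 loci whose mean reached 1 FPKM. All 10 members passed that filter. CYCB2 and WEE1 passed it only through their monomaker levels, as their compound raceme means were 0.423 and 0.867 FPKM. Over all tested loci 2.52% fell and 0.75% rose, and 46.1% had a fold change below 0. The median fold change of the 6 mitotic genes was -2.27, against 0.04 for all tested loci and -0.71 for the 4 contrast genes. In each of the 6, every compound raceme library lay below every monomaker library, which held for 15.3% of tested loci. The cultivars overlapped in all 4 contrast genes. The members were chosen with earlier results of these data known, so these counts beside the shares over all loci are a description and no test.

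**Figure D1:**
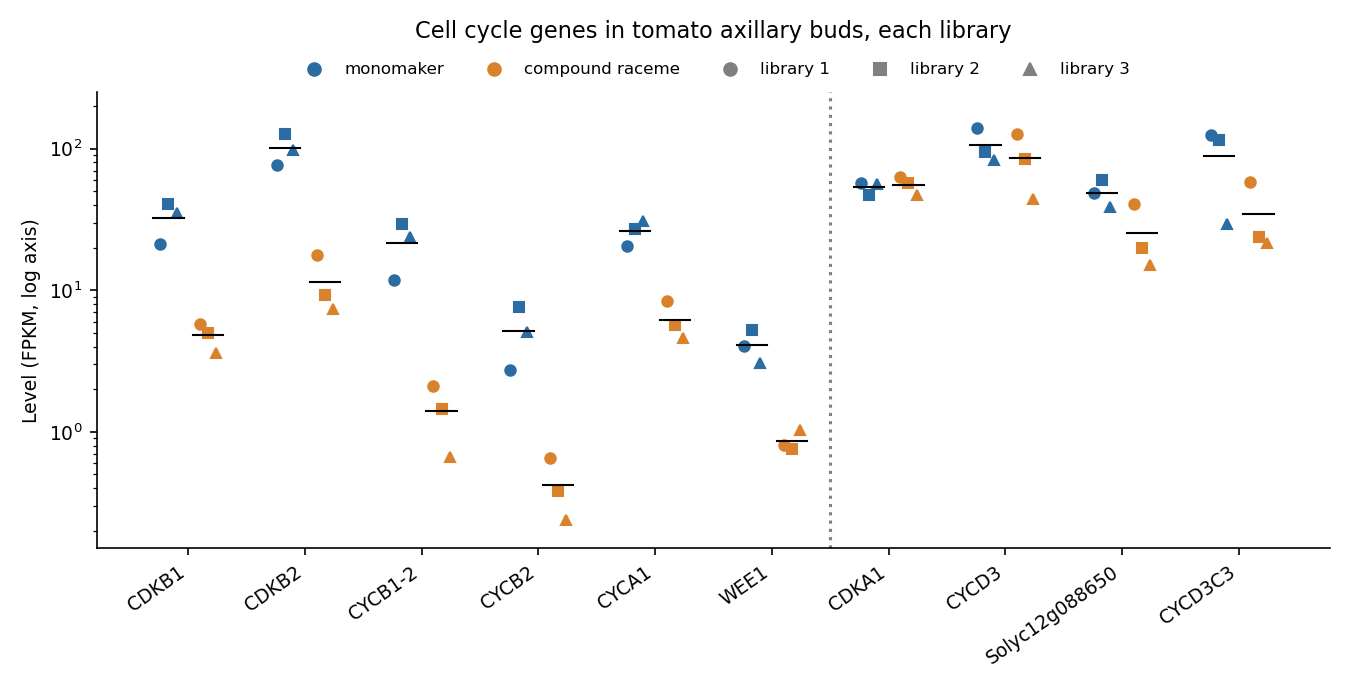
Level of each gene in FPKM on a log axis, one point per library, with the mean of each cultivar as a bar. Left of the dotted line, the mitotic genes show every compound raceme library below every monomaker library; to its right, CDKA1 and the CYCD3 genes overlap.

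Both B-type kinases fell. CDKB2 (Solyc04g082840), which in plants peaks between G2 and mitosis, had 76.9, 128 and 98.4 FPKM in monomaker 1 to 3, against 17.6, 9.21 and 7.32 FPKM across compound raceme 1 to 3. The lowest monomaker library was thus 4.36 times the highest compound raceme library. Its log2 fold change was -3.10 (SE 0.33, limma adjusted p = 0.0193), which placed it 60th from the lowest among all tested loci. CDKB1 (Solyc10g074720), whose transcripts in plants span S phase to mitosis, had 21.3, 40.6 and 35.04 FPKM in monomaker, against 5.79, 5.02 and 3.6 FPKM across compound raceme. Monomaker 1 was the lowest of its cultivar and still 3.68 times the highest compound raceme library. The log2 fold change of CDKB1 was -2.49 (SE 0.27, limma adjusted p = 0.0193). CDKB2 exceeded CDKB1 in every library, by 2.81 to 3.61 times in monomaker and by 1.83 to 3.04 times in compound raceme, so the ranges of that ratio overlapped.

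The B-type cyclin CYCB1-2 (Solyc10g080950) showed the lowest fold change of the 10 genes. Its level was 11.9, 29.4 and 23.8 FPKM in monomaker, against 2.1, 1.44 and 0.66 FPKM across compound raceme. The log2 fold change was -3.20 (SE 0.37, limma adjusted p = 0.0193). The cultivar means, 21.7 ± 8.98 and 1.4 ± 0.721 FPKM (SD, n = 3), stood in a ratio of 15.5. CYCB2 (Solyc02g082820; chromosome 2, 47024618 to 47029901 of SL3.0, plus strand), also a B-type cyclin, was lower throughout. It had 2.73, 7.66 and 5.08 FPKM in monomaker, against 0.65, 0.38 and 0.24 FPKM across compound raceme. The log2 fold change was -2.04 (SE 0.33, limma adjusted p = 0.0308). Every compound raceme value of CYCB2 was below 1 FPKM. There the pseudocount weighs most, and with a pseudocount of 0.1 FPKM the log2 fold change was -3.29. The table lists CYCB2 in 2 rows, of which the row with coordinates held most of the level.

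CYCA1 (Solyc11g005090; chromosome 11, 66979 to 74099 of SL3.0, minus strand), an A-type cyclin, fell with a fold change smaller in size than those of the B-type kinases and CYCB1-2, a difference that was not tested. It had 20.4, 27.2 and 30.9 FPKM in monomaker, against 8.37, 5.65 and 4.59 FPKM across compound raceme. The log2 fold change was -1.93 (SE 0.24, limma adjusted p = 0.0201). These are sums of 2 rows of similar level. In compound raceme the row with coordinates had 4.02, 2.24 and 2.39 FPKM and the row without had 4.35, 3.41 and 2.2 FPKM. In the authors' deposited table both rows were lower in compound raceme, with log2 ratios of -2.03 and -2.09. Within a library, CYCB1-2 stood at 0.581, 1.08 and 0.771 times the level of CYCA1 in monomaker and at 0.251, 0.255 and 0.144 times in compound raceme. The balance between these cyclins therefore lay lower in all 3 compound raceme libraries, a comparison chosen after the values were seen and not tested. The ratio of CYCB1-2 to CDKB2, by contrast, ran from 0.154 to 0.242 in monomaker and from 0.0902 to 0.156 in compound raceme, and its ranges overlapped.

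WEE1 (Solyc09g074830), the inhibitory kinase, also fell. It had 4.02, 5.2 and 3.04 FPKM in monomaker, against 0.81, 0.76 and 1.03 FPKM across compound raceme. The log2 fold change was -1.43 (SE 0.22, limma adjusted p = 0.0275). Its 95% interval, -1.95 to -0.90, did not reach that of CYCB1-2, -4.09 to -2.31. Both intervals rest on the same libraries, and the difference between the genes was not tested. With a pseudocount of 0.1 FPKM the fold changes were -2.09 (SE 0.32) and -3.89 (SE 0.48), and that of CYCA1 was -2.08. Relative to CDKB2 in the same library, WEE1 stood at 0.0523, 0.0407 and 0.0309 in monomaker and at 0.046, 0.0825 and 0.141 in compound raceme, and the ranges overlapped.

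CDKA1 (Solyc08g066330; chromosome 8, 54931414 to 54948605 of SL3.0, plus strand) had the smallest relative spread of the 10 genes in both cultivars. It had 57.6, 46.9 and 56.5 FPKM in monomaker, against 62.7, 57.1 and 46.9 FPKM across compound raceme. Its log2 fold change of 0.04 had a 95% interval of -0.35 to 0.44 (limma adjusted p = 0.885), and its sign turned without monomaker 2 or compound raceme 1, where it was -0.047. The standard deviation was 10.9% of the mean in monomaker and 14.5% in compound raceme. Across the other 9 genes it was 20.4% to 58.5% in monomaker and 16.6% to 59.5% in compound raceme.

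The D-type cyclins did not pass the test, and their intervals were wide. CYCD3 (Solyc02g092980) had 139, 95.3 and 83.0 FPKM in monomaker, against 128, 84.6 and 44.2 FPKM across compound raceme. Its log2 fold change was -0.40 with a 95% interval of -1.33 to 0.54 (limma adjusted p = 0.555); without compound raceme 3 it was 0.010. CYCD3C3 (Solyc04g078470) had 125, 114 and 29.3 FPKM in monomaker, against 58.3, 23.8 and 21.7 FPKM across compound raceme. Monomaker 3 lay among the compound raceme libraries for this gene, and the interval ran from -2.72 to 0.24 (limma adjusted p = 0.256). Solyc12g088650 had 48.4, 59.9 and 38.6 FPKM in monomaker, against 41, 19.9 and 15.1 FPKM across compound raceme. The log2 fold change was -1.03 (95% interval -1.89 to -0.16, limma adjusted p = 0.145). Compound raceme 1 was the single library that overlapped with monomaker, and without it the fold change was -1.43 and the gene was called (limma adjusted p = 0.0435). The interval of CYCD3C3 also held the fold changes of CDKB1, CYCB2, CYCA1 and WEE1.

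**Figure D2:**
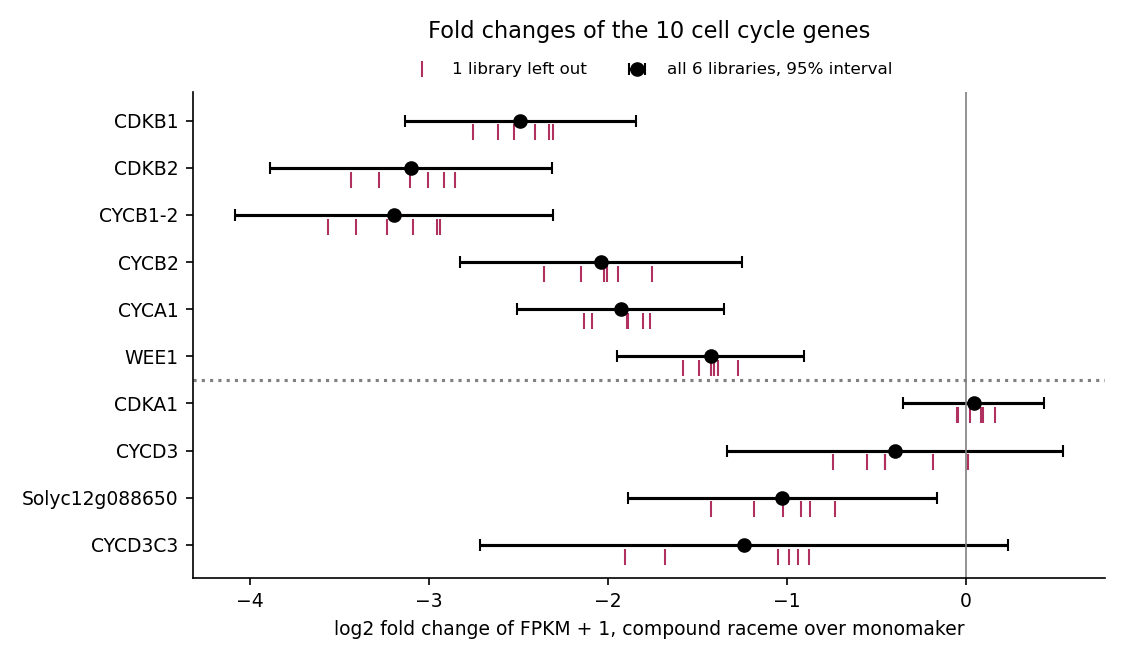
Log2 fold change of FPKM + 1, compound raceme over monomaker, for the 10 genes. Points and bars are the fit to all 6 libraries with its 95% interval, and ticks are the same fold change with 1 library left out; all ticks of the 6 mitotic genes lie below -1.2, while those of CDKA1 and CYCD3 lie on both sides of 0.

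The difference from CDKA1 was also taken within each library, where a scaling of the whole library cancels. CDKB2 stood at 1.33, 2.72 and 1.74 times the level of CDKA1 in monomaker and at 0.281, 0.161 and 0.156 times in compound raceme. CDKB2 was therefore the more abundant kinase transcript in all 3 monomaker libraries and the less abundant in all 3 compound raceme libraries. CDKB1 stood at 0.369, 0.864 and 0.621 times CDKA1 in monomaker and at 0.0923, 0.088 and 0.0768 times in compound raceme. For the test 1 FPKM was added to both levels, so that there a scaling of the library cancels apart from the pseudocount. That log2 ratio to CDKA1 differed by -3.14 for CDKB2 and by -2.53 for CDKB1. Each had p = 0.1 in an exact two-sided permutation test (0.1 after adjustment over the 2 tests), which is the smallest p that 3 against 3 libraries allow. When all loci were expressed relative to CDKA1 and tested together, an alternative chosen after seeing the data, 5 of the 6 mitotic genes were called, with limma adjusted p from 0.00878 for CDKB2 to 0.0328 for CYCB2. WEE1 was not called (limma adjusted p = 0.0556). Of all tested loci 2.05% were called lower in that fit.

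Against the D-type cyclins the separation was narrower. Relative to the mean of the 3 CYCD3 genes in the same library, also chosen after seeing the data, CYCB1-2 (log2 fold change -2.31, limma adjusted p = 0.01) and CDKB2 (-2.21, limma adjusted p = 0.0157) were lower in compound raceme. CDKB1 (-1.60, limma adjusted p = 0.118), CYCA1 (-1.04, limma adjusted p = 0.217), CYCB2 (-1.15, limma adjusted p = 0.218) and WEE1 (-0.54, limma adjusted p = 0.501) were not called. On this scale the median fold change of all tested loci was 0.93, and 0.415% of them were called lower, as were 2 of the 6 mitotic genes.

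**Figure D3:**
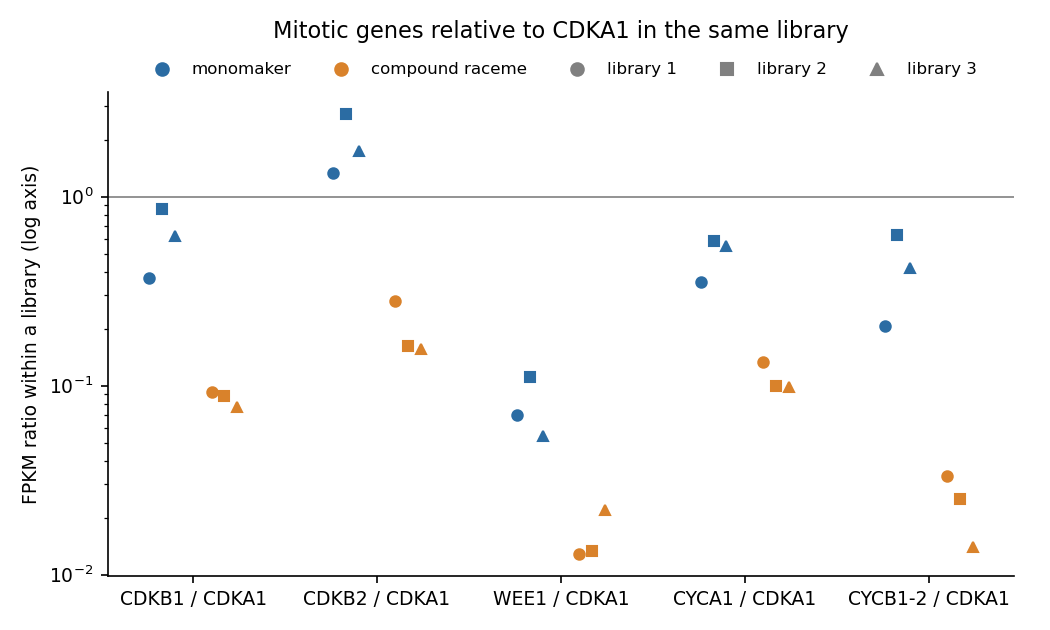
FPKM of 5 mitotic genes divided by the FPKM of CDKA1 in the same library, on a log axis, one point per library. CDKB2 lies above CDKA1 (ratio above 1) in the 3 monomaker libraries and below it in the 3 compound raceme libraries. None of the 5 ratios overlaps between the cultivars, and the share of all loci for which this holds was not computed. For levels alone, every compound raceme library lay below every monomaker library in 15.3% of tested loci. The ratio of CYCB2 is not shown.

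In the order of the levels, CDKB2 stood in the second place in monomaker and in the fifth in compound raceme. In monomaker the means ran from CYCD3 (106 FPKM) through CDKB2 (101 FPKM), CYCD3C3 (89.5 FPKM), CDKA1 (53.7 FPKM), Solyc12g088650 (49.0 FPKM), CDKB1 (32.3 FPKM), CYCA1 (26.2 FPKM) and CYCB1-2 (21.7 FPKM) to CYCB2 (5.16 FPKM) and WEE1 (4.09 FPKM). Neighbours in this order overlapped in their libraries at each step except between CYCB1-2 and CYCB2. In compound raceme CDKA1 (55.5 FPKM) and all 3 CYCD3 genes (25.3 to 85.5 FPKM) stood above CDKB2 (11.4 FPKM), followed by CYCA1 (6.20 FPKM), CDKB1 (4.80 FPKM), CYCB1-2 (1.4 FPKM), WEE1 (0.867 FPKM) and CYCB2 (0.423 FPKM). The steps that did not overlap there were those from CDKB1 to CYCB1-2 and from WEE1 to CYCB2. In monomaker 93.8% of tested loci had a lower mean log2 level than CDKB2, and in compound raceme 46.2%. For CDKA1 the same shares were 87.5% and 88.2%.

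The mitotic genes also varied together within each cultivar. Monomaker 1 was the lowest monomaker library in 5 of the 6, and monomaker 2 the highest in 5. In compound raceme, library 1 was the highest in 5 and library 3 the lowest in 5. WEE1 departed from the common order on the low side of monomaker and on both sides of compound raceme, and CYCA1 peaked in monomaker 3. Over the 6 libraries, Pearson's r of log2(FPKM + 1) between pairs of mitotic genes ran from 0.905 for CYCA1 and WEE1 to 0.999 for CDKB1 and CYCB1-2, a description that the difference between cultivars dominates. The contrast genes followed another order in monomaker, where library 1 was the highest in 3 of 4 and library 3 the lowest in 3 of 4. In compound raceme all 4 were highest in library 1 and lowest in library 3.

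By the same measure, the loci most like the mean of the mitotic genes, among 14302 loci whose mean reached 5 FPKM, with the members left out, were Solyc06g050560 (r = 0.999) and Solyc02g088830 (r = 0.9987). Solyc02g088830 had 32.7, 98.0 and 66.2 FPKM in monomaker, against 5.66, 2.86 and 1.84 FPKM across compound raceme (fold change -3.86 as log2, limma adjusted p = 0.0193). Solyc06g050560 had 6.55, 12.7 and 9.82 FPKM in monomaker, against 1.71, 0.88 and 0.62 FPKM across compound raceme. An r of at least 0.95 was reached by 389 loci (2.72%). The difference between cultivars dominates this r too, so a fold change of a locus picked by it is no separate result. Both named loci reached a mean of 5 FPKM only through their monomaker levels.

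Of all tested loci 2.52% fell and 0.75% rose. Of 10 further cell cycle loci taken by identifier, 9 were tested, 0 rose and 2 fell, with a median log2 fold change of -0.57. Their names were kept for the 4 that RefSeq places alike, CYCA2, CCS52A, CCS52B and RBR1. CCS52B (Solyc06g043150), an activator of the anaphase-promoting complex, which marks mitotic cyclins for destruction, had 13.03, 27.4 and 24.4 FPKM in monomaker, against 2.87, 1.35 and 0.62 FPKM across compound raceme. It fell with a log2 fold change of -3.14 (limma adjusted p = 0.02), and its libraries ranked as those of CYCB1-2 did in both cultivars. Its relative CCS52A (Solyc08g080080), tied to endoreduplication in tomato fruit, had 7.82, 5.79 and 7.27 FPKM against 4.97, 3.84 and 4.29 FPKM and was not called (limma adjusted p = 0.114). The other locus that fell, Solyc12g088520, has no name in the sources used here and passed the filter only through monomaker. It had 1.91 to 2.94 FPKM in monomaker, against 0.16 to 0.5 FPKM across compound raceme (limma adjusted p = 0.0392).

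CYCA2 (Solyc06g065680), an A-type cyclin, had 56.7, 91.2 and 142 FPKM in monomaker, against 58.5, 39.2 and 26.5 FPKM across compound raceme (limma adjusted p = 0.134). Compound raceme 1 exceeded monomaker 1 for this gene. RBR1 (Solyc09g091280), the retinoblastoma-related protein that D-type cyclin kinases inactivate at entry into the cycle, had 22.1 to 35.4 FPKM in monomaker, against 19.3 to 25.9 FPKM across compound raceme (limma adjusted p = 0.712). Solyc09g091780, where RefSeq places KRP1, an inhibitor of cyclin-dependent kinases, had 29.7, 29.7 and 18.9 FPKM in monomaker, against 36.2, 45.4 and 46.9 FPKM across compound raceme. This was the one tested locus of the 10 with a fold change above 0, at 0.71, and it was not called (limma adjusted p = 0.111). Solyc02g090680, where RefSeq places KRP4, overlapped between the cultivars, at -0.31 (limma adjusted p = 0.629). Both names were matched after the values were seen. The other loci taken as KRP genes, whose names RefSeq does not bear out, were lower in the mean. Solyc03g044480 was at -0.56 (limma adjusted p = 0.283), and Solyc01g108610, not tested, had 0.44 against 0.07 FPKM.

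Markers of other tissues moved in part with the mitotic genes. All 6 green leaf loci had a fold change below 0, as did 46.1% of tested loci. Of the 6, 0 were called, where 2.52% of tested loci fell and 0.75% rose. Their summed level was 4151, 15378 and 22370 FPKM in monomaker, against 1691 to 4542 FPKM across compound raceme. RBCS3 (Solyc02g085950), a small subunit gene of Rubisco, had 1100, 6345 and 8529 FPKM in monomaker, against 975.25, 452 and 1797 FPKM across compound raceme (limma adjusted p = 0.191). The summed level of monomaker 1 lay within the compound raceme range. In CAB12 (Solyc06g069730) and Solyc07g047850, by contrast, every compound raceme library lay below every monomaker library, as in 15.3% of tested loci. Their log2 fold changes were -3.23 and -1.64 (limma adjusted p = 0.0946 and 0.117). The summed level of the 6 mitotic genes was 137, 238 and 196 FPKM in monomaker and 17.4 to 35.3 FPKM in compound raceme. Of 5 floral organ loci 3 fell, TM29, TM5 and TPI, beside 2.52% of all tested loci. Their compound raceme means were 0.253, 0.0167 and 0.22 FPKM, so they passed the filter only through monomaker. TM5 was listed at 0 in 2 compound raceme libraries. TM6 was higher in every compound raceme library (log2 fold change 0.82, limma adjusted p = 0.0842). Solyc02g071730 overlapped, at 0.06 (limma adjusted p = 0.866). The 5 summed to 48.1 to 55.2 FPKM in monomaker, against 52.3 to 82.6 FPKM across compound raceme, led by TM6. The part of leaf or floral tissue in the fall of the mitotic genes was not tested.

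Of 8 loci of the shoot meristem and axil, 5 were tested and 0 were called, where 2.52% of tested loci fell and 0.75% rose. The 8 loci summed to 25.9 to 78.6 FPKM in monomaker, against 61.9 to 94.2 FPKM across compound raceme. BRC1B was the largest part of that sum in every library. Levels differed widely within this list, from CLV3, listed at 0 in 5 of the 6 libraries, and WUS, at 0 to 0.53 FPKM, to Solyc02g081120, at 7.13 to 16.5 FPKM in monomaker and 2.08 to 18.9 FPKM in compound raceme. TKN1, a KNOX gene of the meristem, had 17.7, 6.19 and 4.17 FPKM in monomaker, against 0.08, 10.8 and 9.81 FPKM across compound raceme (limma adjusted p = 0.641). Compound raceme 1, lowest in TKN1, was the highest of its cultivar in 5 of the 6 mitotic genes. BRC1B (Solyc06g069240), of the TCP family, known to hold buds back, had 32.2, 27.2 and 11.5 FPKM in monomaker, against 53.9, 55.7 and 43.4 FPKM across compound raceme and was not called (limma adjusted p = 0.113).

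**Figure D4:**
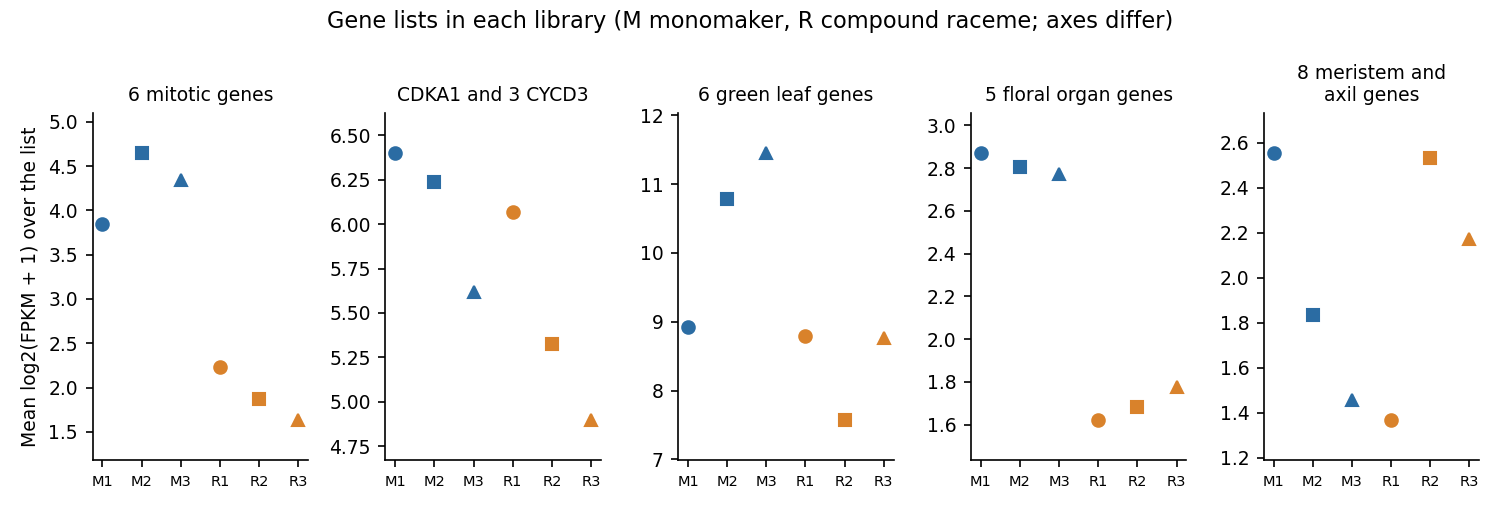
Mean log2(FPKM + 1) over each gene list in each library, with monomaker (M) in blue and compound raceme (R) in orange; the vertical axes differ. The mitotic genes separate the cultivars (3.85 to 4.65 against 1.63 to 2.24), the green leaf loci place monomaker 1 (8.92) beside compound raceme, and the meristem and axil loci overlap.

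The calls of the mitotic genes depended on which libraries were kept, while their direction did not. Without monomaker 2, monomaker 3, compound raceme 2 or compound raceme 3, 0 of the 6 passed limma's adjusted threshold, although all 6 had an unadjusted limma p below 0.05 in each of those fits. Few loci of any kind were called there, between 6 and 15. In the same fits 2844 to 3910 loci, of 18724 to 18819 tested, also had an unadjusted limma p below 0.05. Without compound raceme 1 the test called 5 of the 6, losing WEE1, and without monomaker 1 all 6, with 2041 loci called in place of 614. Over these 6 fits the log2 fold change of CDKB2 ran from -3.44 to -2.86 and that of WEE1 from -1.58 to -1.27.

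In the authors' deposited table, where 6.63% of 31063 rows were lower in compound raceme at a q-value below 0.05, all 8 rows of the mitotic genes were among them and none of the 4 rows of the contrast genes was. CDKB2 had a log2 ratio of -3.05 and a q-value of 2.87e-14 in the authors' deposited table. The authors' deposited table gave CYCB1-2 a log2 ratio of -3.66, CDKB1 one of -2.68 and WEE1 one of -2.17. For Solyc12g088650 and CYCD3C3 the authors' deposited table gave log2 ratios of -0.95 and -1.26 with q-values of 0.0797 and 0.0876. These q-values and the limma test rest on the same 6 libraries.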

How the data were processed

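RNA was extracted with Trizol and sequenced on BGI500 libraries, per the labels' protocols. DESeq2 1.4.5, RSEM 1.2.12, HISAT2 2.0.4 and Bowtie2 2.2.5 are listed, with no role, per the submitters' processing notes. The authors deposited FPKM values rounded to 2 decimals, on SL3.0 coordinates per the file headers. The deposited table also holds the authors' log2 ratio, p-value and q-value per row. Strand use in counting and the annotation release are not given in the sources used here.

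FPKM rows of a locus were summed (5699 loci had 2 rows), loci whose mean reached 1 FPKM were kept, and limma 3.58.1 (R 4.3.3) was fitted to log2(FPKM + 1) with a variance trend and the cultivar as its only term, adjusted by Benjamini and Hochberg over 18802 loci. The script was tested on simulated data. Without counts, depth is unknown and no counting interval is given. The members and lists were chosen with earlier results of these data known; list names came from recalled locus assignments and were kept where the symbol in RefSeq is on the same chromosome within 0.05 of its genes. Called loci and the most abundant of each list were to be named, with all members and the 2 loci most correlated with the mitotic mean. Other genes named were chosen after their values were seen. Alternatives were pseudocount, filters, scaling, rows, variance trend, replicate block and libraries left out.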

Additional observations from a re-analysis of the deposited data

How the results depend on the processing

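All 6 mitotic genes kept a fold change below 0 under every alternative run. With a pseudocount of 0.1 FPKM their median log2 fold change was -2.95. A minimum mean of 5 FPKM removed CYCB2 and WEE1, and gave a median of -2.80 and 389 loci called in place of 614. CDKB1 and CYCB1-2 passed that filter only through monomaker, as their compound raceme means were 4.80 and 1.4 FPKM. Without both libraries numbered 1 the median of the mitotic genes was -2.68, with 1921 loci called and 1 contrast gene, Solyc12g088650, called. Relative to the 3 CYCD3 genes it was -1.38, with 2 mitotic genes called. With 1 library left out, 6 to 2041 loci, 0 to 6 mitotic genes and 0 to 1 contrast genes were called; a lone library left out also lowers the power of the test, and the cause was not tested. CDKA1, at 0.045 with all libraries, ran from -0.047 (without monomaker 2, and likewise without compound raceme 1) to 0.16, and CYCD3, at -0.40, from -0.74 to 0.010 (without compound raceme 3); relative to the CYCD3 mean CDKA1 was at 0.93 and CYCD3 at 0.49. Quantile normalization gave 220 higher and 447 lower loci, against 141 and 473. Scaling to equal FPKM sums moved the median of all loci from 0.04 to 0.13.

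The replicate numbers were not shown to pair the libraries. Same-numbered libraries had correlations of deviations of 0.0275, 0.058 and 0.103. Monomaker 1 correlated best with compound raceme 2 (0.101), while monomaker 2 and monomaker 3 each correlated best with the compound raceme library of the same number. A fit with the replicate block called 0 loci and 0 mitotic genes in limma, with 4676 loci and all 6 mitotic genes at an unadjusted p below 0.05.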
